A study of Mus musculus with 2 samples.

Results

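The prolactin receptor (*Prlr*), the growth hormone receptor (*Ghr*), the kinase *Jak2*, the transcription factor *Elf5* and the feedback inhibitors *Cish*, *Socs1*, *Socs2*, *Socs3*, *Socs5* and *Socs7* were followed in mammary epithelial cells (MECs) of lactating mice. These 10 genes were taken by symbol out of 25810 listed genes, and all 10 had at least 1 RPM (reads scaled to a library total of 1000000) in either library. Inguinal glands of lactation day 3 gave 1 wild type (WT) library and 1 *Igfbp7*-/- library of polyadenylated RNA, sequenced on the SOLiD platform. *Igfbp7* encodes a secreted protein that binds insulin-like growth factors, and the -/- mice lack its first coding exon in every cell, since the exon was removed by Cre in embryonic stem cells. The labels give C57BL/6 as the genetic background of both genotypes, where the study's methods name CD1. Cells carrying lineage markers had been removed with magnetic beads, CD45 for leukocytes, Ter119 for erythroid cells and either CD35 (labels) or CD31 (methods, an endothelial marker). The number of females per library, their age and the number of pups each nursed were not found in these sources.

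Prolactin binds PRLR on the surface of luminal epithelial cells and activates the kinase JAK2, which is bound to the receptor. JAK2 phosphorylates STAT5, and STAT5 dimers enter the nucleus and switch on milk protein genes. ELF5, an ETS factor of alveolar and progenitor luminal cells, works beside STAT5 in building the secretory alveoli. STAT5 also switches on *Cish* and *Socs2*, whose products bind phosphorylated receptors and limit the signal. SOCS1 and SOCS3 block JAK kinases directly, and SOCS3 is the main brake on receptors of the gp130 family, which signal through STAT3.

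The promoters of the genes were searched for TTCNNNGAA, the short element that STAT dimers recognise. RefSeq promoter windows (build GRCm38.p6, 250 bases before to 50 after a start) were at hand for 7 of the 10 genes, in 11 windows, while *Socs2*, *Socs5* and *Socs7* had none in the table. The element reads the same on both strands and stood in 3 of the 11 windows, those of *Cish*, *Socs3* and *Prlr*. Over all 32851 windows 8.30% held it. The 4 matches follow, each within 30 bases read 5′ to 3′ along the gene, with the element in capitals.
*Cish*, chr9:107296649-107296678, plus strand: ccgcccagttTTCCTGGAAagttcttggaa
*Cish*, chr9:107296660-107296689, plus strand: tcctggaaagTTCTTGGAAatctgtcaaag
*Socs3*, chr11:117969501-117969530, minus strand: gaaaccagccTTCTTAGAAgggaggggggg
*Prlr*, chr15:10223786-10223815, plus strand: gcaaaatgagTTCTAGGAAtaagggatatc
The *Cish* elements are neighbours, starting at bases 1 and 12 of the annotated transcript. The *Socs3* element starts 154 bases before its start and the *Prlr* element 110 bases before the second of 3 annotated starts. The same letters with 1 more base in the middle were found in 0 of the 11 windows, against 6.95% of all windows. A match describes the letters in a window and does not show that a factor binds there.

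The library totals were 34327854 (WT) and 35016847 (*Igfbp7*-/-) reads, of which 82.3% and 72.3% lay on listed genes. *Igfbp7* itself was read 5224 times in WT, giving 152.2 RPM, and 37 times in the *Igfbp7*-/- library, giving 1.06 RPM, as the labels require. With 1 library per genotype no test could be made. Each ratio is given as log2 of *Igfbp7*-/- over WT on RPM plus 0.1, which understates the ratios of low genes. Its 95% Clopper-Pearson interval on read pairs covers counting error only and compares 2 libraries, not the genotypes. A gene was called higher or lower at a ratio of at least 1.5, and 44.5% of the 14026 genes with at least 1 RPM were called, 21.4% as higher and 23.0% as lower. In bulk RNA, fewer cells of a type and less RNA per cell cannot be told apart.

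Of the 10 genes, *Prlr* was called higher, and *Socs1* and *Socs2* were called lower. *Prlr* was 3.39-fold higher in the *Igfbp7*-/- library, while *Socs2* was 1.91-fold and *Socs1* 2.39-fold lower. The other 7 genes, *Ghr*, *Jak2*, *Elf5*, *Cish*, *Socs3*, *Socs5* and *Socs7*, differed by less than 1.5 times. The median log2 ratio over the 10 genes was -0.36, where that over all genes was 0.03. With 1 of 10 called higher and 2 of 10 called lower, the shares do not exceed those among all genes.

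**Figure D1:**
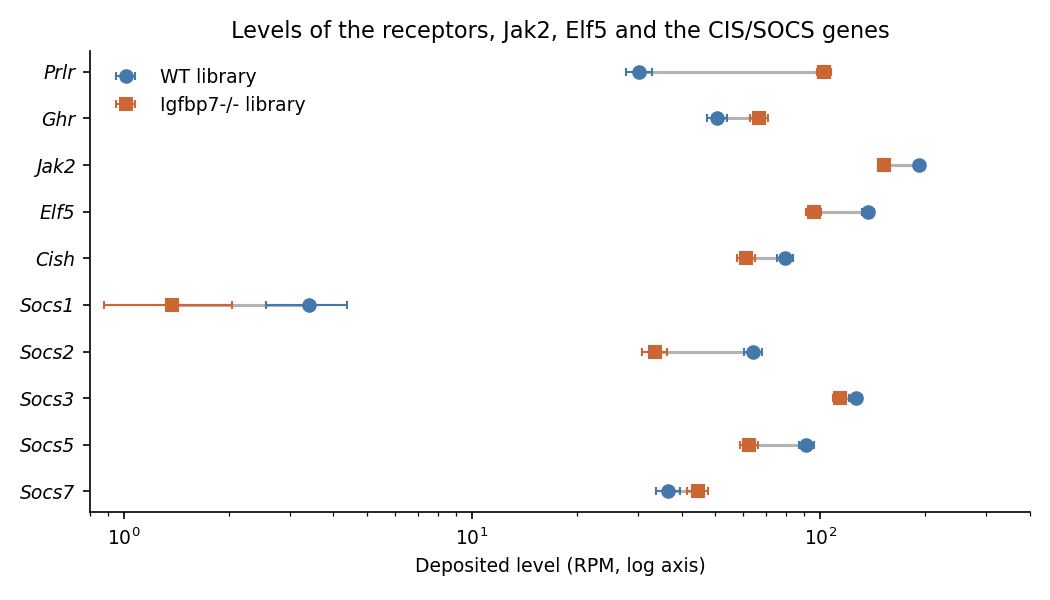
Deposited level of each gene in RPM on a log axis, in the WT library (circles) and the *Igfbp7*-/- library (squares), with 95% exact Poisson counting intervals on read pairs. *Prlr* shows the widest gap with the *Igfbp7*-/- library on the right, and *Socs1* lies far below the other genes, at 3.41 and 1.37 RPM.

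*Prlr* (NCBIM37, chr15:10106993-10303504, plus strand) had 1035 reads in WT and 3591 in *Igfbp7*-/-, or 30.2 and 102.6 RPM. Its log2 ratio was 1.76 (interval 1.62 to 1.91), above 97.7% of the ratios of all genes. In WT its RPM exceeded that of 70.3% of genes, and in *Igfbp7*-/- that of 90.4%. The counts were summed over the gene, so the long form of the receptor, which signals to STAT5, and the short forms, which lack most of the signalling tail, were not separated. A gene on the same strand, *Agxt2*, shares annotated exon sequence with *Prlr* and had 0 and 2 reads. Scaling the libraries to 5 luminal epithelial markers in place of the library total lowered the *Prlr* log2 ratio to 0.54, below the 1.5-fold mark. Under the other 6 alternative scalings *Prlr* stayed above that mark, with a highest log2 ratio of 1.96.

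*Ghr* (chr15:3267760-3533492, minus strand), the receptor for growth hormone and, like *Prlr*, a class I cytokine receptor that uses JAK2, lies on the same chromosome. It had 1738 and 2335 reads, 50.6 RPM in WT and 66.7 in *Igfbp7*-/-. The log2 ratio of 0.40 (0.27 to 0.53) was short of 1.5 times and turned to -0.83 under luminal marker scaling. It reached 0.60, just past the mark, when the scaling used the listed reads after removal of ribosomal and small nuclear RNA. The receptors therefore shared a direction at the deposited scale, and *Prlr* was 2.58-fold higher relative to *Ghr* (interval 2.26 to 2.95) in the *Igfbp7*-/- library than in WT.

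*Jak2* (chr19:29326318-29387570, plus strand), the kinase shared by both receptors, was the most read gene of the set with 6589 reads in WT and 5328 in *Igfbp7*-/-. Its levels of 191.9 and 152.2 RPM gave a log2 ratio of -0.33 (-0.41 to -0.26). *Elf5* (chr2:103251845-103291146, plus strand) had 4713 and 3358 reads, 137.3 and 95.9 RPM, and a log2 ratio of -0.52 (-0.61 to -0.43). Both were lower in *Igfbp7*-/- without reaching 1.5 times, and both were lower under every scaling tried, past the mark only under luminal marker scaling (-1.56 for *Jak2* and -1.74 for *Elf5*). At the deposited scale the upper part of the route thus showed more *Prlr* mRNA in *Igfbp7*-/- beside slightly less mRNA of the kinase and of ELF5. *Ghr* was higher there by less than 1.5 times. Under luminal marker scaling *Prlr* was at 0.54, short of the mark, and *Ghr* was lower at -0.83.

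Among the 6 feedback inhibitors 0 were called higher and 2 lower, where 21.4% and 23.0% of all genes were, with a median log2 ratio of -0.46 and summed levels of 401.5 (WT) and 316.6 RPM (*Igfbp7*-/-). *Socs2* (chr10:94847996-94879814, minus strand), the inhibitor best known for restraining growth hormone signalling, had 2204 reads in WT and 1174 in *Igfbp7*-/-. At 64.2 and 33.5 RPM its log2 ratio was -0.94 (-1.08 to -0.79), and it was called lower under all 11 alternative scalings, pseudocounts and minimums, but not at a ratio threshold of 2. *Socs1* (chr16:10783901-10785629, minus strand), an inhibitor of JAK kinases induced by interferon gamma as well as by prolactin, was the lowest gene of the set with 117 and 48 reads. Its 3.41 and 1.37 RPM gave a log2 ratio of -1.25 with a wide interval (-2.05 to -0.59), and it was called lower in the 10 of these alternatives that kept it, a minimum of 10 RPM having removed it, and also at a ratio threshold of 2.

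*Cish* (chr9:107198357-107205115, plus strand), which encodes CIS, a direct STAT5 target that competes for docking sites on the receptor, had 2727 and 2143 reads. Its levels of 79.4 and 61.2 RPM gave a log2 ratio of -0.38 (-0.49 to -0.26), so it moved less than *Socs2*. Relative to *Cish*, *Socs2* reads were 0.678 times as many in *Igfbp7*-/- as in WT (interval 0.595 to 0.772). Exons of *Cish* overlap the antisense genes *Gm17040* and *Gm17041*. These were not listed, and whether counting used strand was not found in the sources, so reads from either strand cannot be told apart.

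*Socs3* (chr11:117827393-117831361, minus strand), whose product docks on gp130 and blocks the attached JAK, had 4344 and 3984 reads. At 126.5 and 113.8 RPM it differed least of the 10 genes, with a log2 ratio of -0.15 (-0.24 to -0.07), and its log2 ratio turned to 0.05 when the listed reads, with ribosomal and small nuclear RNA removed, set the scale. *Socs5* (chr17:87507019-87536923, plus strand), linked to interleukin-4 and EGF receptor signalling, had 3135 and 2182 reads. Its 91.3 and 62.3 RPM gave -0.55 (-0.66 to -0.44), close to the 1.5-fold mark of 0.58. *Socs7* (chr11:97223865-97259856, plus strand), known to bind the adaptor NCK, was the inhibitor with more reads in *Igfbp7*-/-, 1257 against 1556, at 36.6 and 44.4 RPM. The log2 ratio of *Socs7* was 0.28 (0.13 to 0.43), and it turned to -0.95 under luminal marker scaling.

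**Figure D2:**
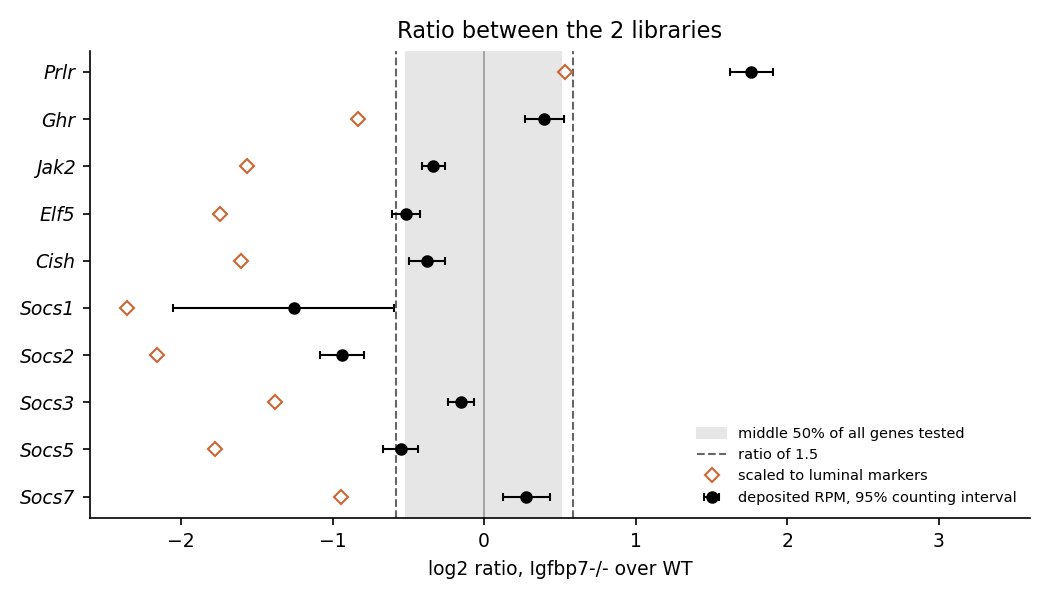
Log2 ratio of *Igfbp7*-/- over WT for each gene at the deposited RPM scale (filled points, bars are 95% counting intervals) and after scaling to luminal markers (open diamonds). The grey band holds the middle 50% of all genes tested and dashed lines mark a ratio of 1.5. At the deposited scale *Prlr* lies right of the band and *Socs1*, *Socs2* and *Socs5* left of it, with *Socs5* still inside the dashed lines. Under luminal marker scaling *Prlr* falls to 0.54 and *Ghr* and *Socs7* change sign, and *Socs3* changes sign under another scaling not drawn here.

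Levels of different genes were compared per length, in the deposited RPKM, which divides the RPM by the length of the gene in kilobases and uses 1 length per gene. In WT *Elf5* ranked highest at 62.0 RPKM, followed by *Socs3* at 46.2 RPKM. *Jak2* (38.2 RPKM) and *Cish* (36.8 RPKM) came next, with overlapping counting intervals. *Socs2* (28.9 RPKM), *Socs5* (20.5 RPKM), *Ghr* (12.1 RPKM) and *Socs7* (5.22 RPKM) followed, each apart from its neighbours. *Prlr* (2.92 RPKM) and *Socs1* (2.79 RPKM) were lowest and not distinguishable by counting. The receptors were thus well below the inhibitors *Cish* and *Socs3* in WT.

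The order in *Igfbp7*-/- was similar at the top and different in its lower part. *Elf5* (43.3 RPKM) and *Socs3* (41.5 RPKM) no longer differed beyond their intervals, nor did *Jak2* (30.2 RPKM) and *Cish* (28.3 RPKM). *Ghr* (16.0 RPKM), *Socs2* (15.1 RPKM) and *Socs5* (14.0 RPKM) formed a group in which each overlapped the next. *Prlr* at 9.93 RPKM had passed *Socs7* (6.33 RPKM), and *Socs1* was last at 1.12 RPKM. The length set for *Prlr*, 10328 bases, is the longest of the set, so short receptor transcripts, if they were the ones read, would have a higher level per length than this.

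**Figure D3:**
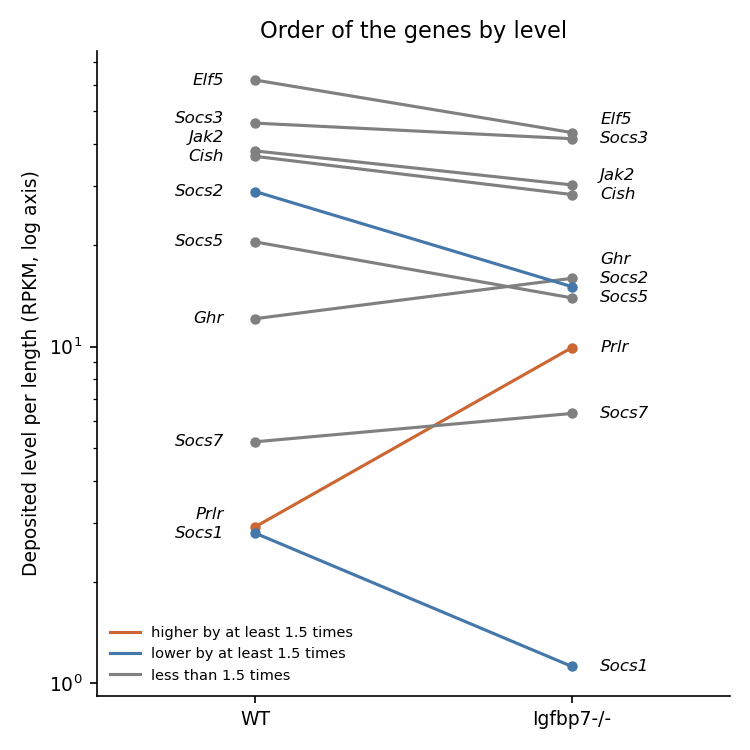
Deposited level per length in RPKM on a log axis for each gene in the WT and *Igfbp7*-/- libraries, with lines joining the values of a gene and coloured by the 1.5-fold call. *Prlr* rises from 2.92 to 9.93 RPKM and crosses *Socs7*, while *Socs2* drops from 28.9 to 15.1 RPKM to the level of *Ghr* and *Socs5*. Ratios between the libraries depend on the scaling, and the order within a library does not.

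Quotients of reads on a pair of genes within a library need no library total. Taken this way, *Prlr* was higher in *Igfbp7*-/- relative to each of the other 9 genes, from 2.58-fold against *Ghr* to 8.46-fold against *Socs1* (interval 5.06 to 14.2). *Prlr* had the highest ratio of the set, so the direction of all 9 quotients was fixed by that and is no further result. Only their sizes are added here. Against *Jak2* the quotient of *Prlr* was 4.29-fold higher (3.83 to 4.80), and against *Cish* 4.42-fold (3.88 to 5.02). Against *Socs2* it was 6.51-fold higher (5.64 to 7.51), with *Prlr* at 0.101 of the *Socs2* RPKM in WT and 0.658 in *Igfbp7*-/-. The balance of *Prlr* mRNA to that of *Cish*, *Socs1* and *Socs2* therefore differed between the libraries under any scaling. Quotients of *Ghr* to the inhibitors were not computed. Against luminal epithelial markers, named here after their values were seen, 4 of 5 quotients were above 1 and 1 was below. *Prlr* was 1.16-fold higher against the keratin *Krt8* (1.04 to 1.28), 1.23-fold higher against *Krt19* (1.10 to 1.38) and 0.726-fold against *Krt18* (0.654 to 0.805). Against the adhesion genes *Epcam* and *Cdh1* it was 2.39-fold (2.15 to 2.65) and 2.61-fold (2.35 to 2.90) higher.

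Other genes of the pathway were read from a list of 60, of which 55 had at least 1 RPM. Of these 9 were called higher and 23 lower, against 21.4% and 23.0% of all genes, with a median log2 ratio of -0.19. Milk protein genes made up 8 of the 23. The ligands *Prl*, *Prl3b1* and *Prl3d1* had 0 reads in both libraries, for which the read-pair interval reaches up to 0.215 (WT) and 0.211 RPM (*Igfbp7*-/-), and *Gh* had 2 reads and 0 reads. Prolactin and growth hormone are made in the pituitary and placental lactogens in the placenta, so the receptors were read here without their ligands.

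The other kinases of the family did not move as a group. *Jak1*, which serves gp130 and interferon receptors, was at 360.8 and 283.7 RPM (log2 ratio -0.35), close to *Jak2* in ratio. *Jak3* was at 6.82 and 8.40 RPM (0.30), and *Tyk2* was higher at 11.6 and 23.5 RPM (1.01), although it turned to -0.21 under luminal marker scaling. Of the 7 STAT factors, which carry the signal to the nucleus, 0 were higher and 4 lower. *Stat2* (146.8 and 62.0 RPM, log2 ratio -1.24), an interferon mediator, was lower, and *Stat3*, the most abundant, was at 426.9 and 470.6 RPM (0.14, or -1.09 under luminal marker scaling).

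The STATs downstream of *Prlr* were looked at singly after their values had been seen. *Stat5a* was lower at 64.8 and 31.4 RPM (-1.04), and *Stat5b* was at 46.0 and 38.8 RPM (-0.25). These genes are closely related in sequence, and whether reads were split between them was not checked, so their single values are uncertain. The ratio of *Stat5a* was close to that of *Socs2*, and the quotient of *Socs2* to *Stat5a* was 1.08-fold in *Igfbp7*-/- relative to WT (0.932 to 1.25), an interval that includes 1. The quotient of *Socs2* to *Stat5b* was 0.620 times its WT value (0.536 to 0.717), an interval that excludes 1.

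Further inhibitors outside the 10 genes gave a mixed picture. *Socs4* was higher at 13.3 and 25.6 RPM (0.94, turning to -0.28 under luminal marker scaling) and *Socs6* was at 24.9 and 36.0 RPM (0.53, turning to -0.70). SOCS proteins recruit a ubiquitin ligase through their SOCS box, and its adaptor subunits elongin C (*Tceb1*, 55.3 and 31.9 RPM, -0.79) and elongin B (*Tceb2*, 19.5 and 12.8 RPM, -0.61) were lower. *Tceb2* was called in 5 of the 8 scalings, the deposited one included. The ligase scaffold *Cul5* (23.9 and 25.5 RPM, 0.09) and the RING subunit *Rnf7* (8.21 and 10.7 RPM, 0.38) were within 1.5 times.

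Of 4 phosphatases that act on the route, *Ptpn2*, which removes phosphate from JAK and STAT proteins, was higher at 45.5 and 71.9 RPM (0.66, turning to -0.57 under luminal marker scaling). *Ptpn6*, a phosphatase mainly of blood cells, was lower at 4.78 and 2.37 RPM (-0.98). *Ptpn1* (-0.18) and *Ptpn11* (0.31) were within 1.5 times. None of the 4 PIAS genes, whose products restrain STATs in the nucleus, was called (log2 ratios of -0.02 for *Pias3*, 0.01 for *Pias2*, 0.47 for *Pias1* and 0.52 for *Pias4*). Nor was any of the genes for JAK2 adaptors and receptor turnover, where *Sh2b1* had 0.55, *Sh2b2* -0.19, *Sh2b3* -0.18 and *Btrc*, a ubiquitin ligase subunit that marks PRLR for degradation, 0.53.

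The ETS factors *Ehf* and *Elf3*, relatives of *Elf5* in epithelial cells, lay on the other side of *Elf5*. *Ehf* was higher at 71.7 and 203.4 RPM, or 2.83-fold, and *Elf3* at 19.5 and 37.6 RPM (0.94). Under luminal marker scaling *Ehf* kept its sign at 0.28 and *Elf3* turned to -0.28. Without any scaling, the quotient of *Elf5* to *Ehf* was 0.246 times its WT value in *Igfbp7*-/- (0.225 to 0.270), and that to *Elf3* 0.363 times (0.313 to 0.421). In RPKM *Elf5* was at 3.79 times *Ehf* in WT and at 0.933 times in *Igfbp7*-/-.

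Targets of the receptor lay on both sides. All 8 milk protein genes, products of secretory alveolar cells, were lower at the deposited scale, with log2 ratios from -2.82 for the casein *Csn1s2b* to -1.08, and summed levels of 139407 (WT) and 52852 RPM (*Igfbp7*-/-). The beta-casein gene *Csn2* was lower at -1.41, the alpha-casein gene *Csn1s1* at -1.26 and whey acidic protein, *Wap*, at -1.83. *Elf5* differed less than these, and its reads were 1.86-fold higher relative to *Csn2* (1.74 to 1.98) in *Igfbp7*-/- than in WT. Against *Btn1a1* and *Xdh*, which serve milk fat secretion and were chosen after their values were seen, the quotient of *Elf5* was lower, at 0.711 times (0.663 to 0.763) and 0.553 times (0.516 to 0.594) its WT value. Among 4 further targets, *Tph1*, the enzyme that starts serotonin synthesis, was higher at 6.55 and 34.0 RPM (2.36) and *Wnt4*, a signal of hormone-sensing cells, at 1.54 and 5.34 RPM (1.73). *Igf2* was lower at 54.9 and 22.0 RPM (-1.31), and the cell cycle gene *Ccnd1* was at 93.5 and 68.7 RPM (-0.44). *Tph1* was the one higher pathway gene still called under luminal marker scaling, at 1.13, and *Wnt4* had 0.53 there.

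Downstream of *Ghr*, *Igf1* (16.7 and 9.42 RPM, -0.82) and *Igfals* (10.7 and 6.40 RPM, -0.73), which encodes a partner of circulating IGF, were both lower, while *Ghr* itself was at 0.40. *Igfals* was called in 6 of the 8 scalings. Among the 7 ligands and receptors of the gp130 route, which induces *Socs3*, 2 were higher and 3 lower. The cytokine *Il6* was lower at 260.0 and 55.9 RPM (-2.22), and the oncostatin receptor *Osmr* at 527.8 and 297.4 RPM (-0.83). *Il6ra* was higher at 35.2 and 66.4 RPM (0.91, turning to -0.31 under luminal marker scaling), and *Il6st*, which encodes gp130, was at 456.0 and 448.4 RPM (-0.02). In the interferon gamma route, which induces *Socs1*, *Irf1* was lower at 175.8 and 93.0 RPM (-0.92), as was *Ifng* on 46 and 24 reads (-0.87, interval -2.11 to 0.10). The receptor genes *Ifngr1* (0.41) and *Ifngr2* (0.17) were within 1.5 times, with both signs turning under luminal marker scaling.

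**Figure D4:**
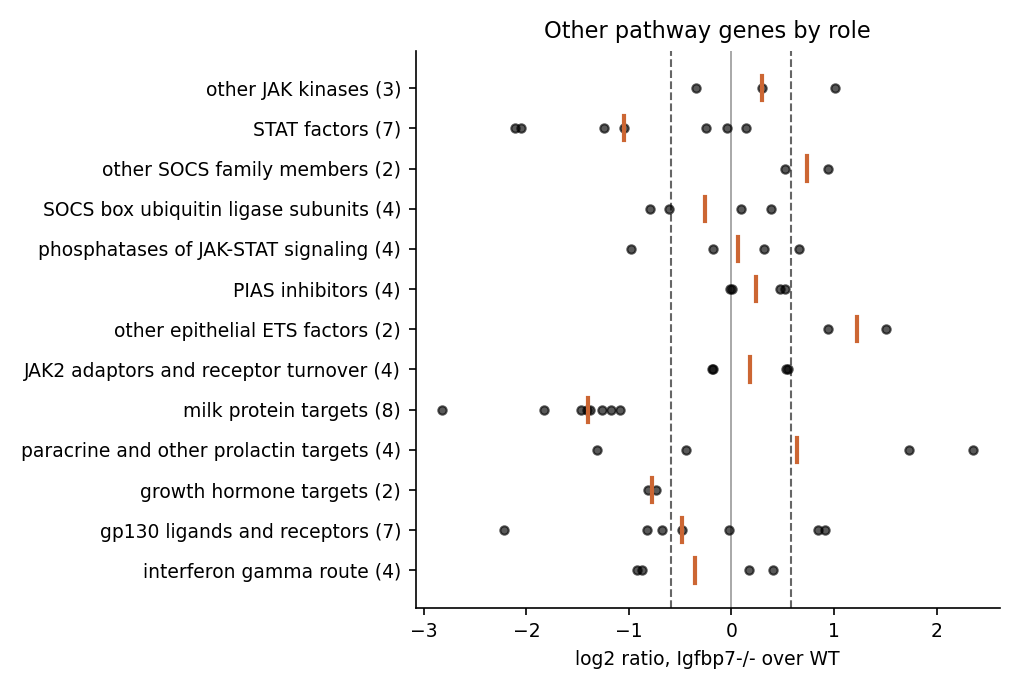
Log2 ratio of *Igfbp7*-/- over WT at the deposited RPM scale for 55 other pathway genes with at least 1 RPM, 1 point per gene, grouped by role with the number of genes in parentheses. Vertical bars are group medians and dashed lines mark a ratio of 1.5. All 8 milk protein genes and 4 of 7 STAT factors lie left of the lower line and both epithelial ETS factors right of the upper line, where *Elf3* turns to -0.28 under luminal marker scaling.

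Cell type markers moved between the libraries along with the 10 genes, and their part in the ratios was not tested. Luminal epithelial markers summed to 1311 (WT) and 3191 RPM (*Igfbp7*-/-), with 3 of 5 called higher. Of 6 hormone-sensing luminal markers, the cells that carry steroid hormone receptors and *Prlr*, 5 were higher at the deposited scale. Among them, named after their values were seen, the progesterone receptor *Pgr* was at 0.932 (32 reads) and 5.60 RPM and the estrogen receptor *Esr1* at 4.46 and 10.9 RPM, but the sum of the list was 119.6 and 142.3 RPM because *Ly6a*, at 107.8 and 106.4 RPM, made up most of it. Under luminal marker scaling *Pgr* (1.27) and *Foxa1* (0.98) stayed past the 1.5-fold mark. *Areg* was at 0.55 there, *Esr1* at 0.06, *Prom1* at -0.01 and *Ly6a* at -1.25, all also named after their values were seen. Luminal progenitor markers, a class in which *Elf5* is abundant, summed to 585.6 and 845.1 RPM, with 1 of 4 higher. Secretory alveolar markers summed to 68275 and 25103 RPM with 4 of 6 lower, 3 of them milk proteins also counted above, and *Csn2* and *Wap* made up nearly all of the sum. The alveolar markers that are not milk proteins, named after their values were seen, did not share a direction, with *Folr1* lower at 138.6 and 62.5 RPM, *Btn1a1* at 507.2 and 498.1 RPM and *Xdh* at 409.6 and 517.2 RPM.

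Markers of cells outside the luminal layer were mostly lower in *Igfbp7*-/-. Myoepithelial markers summed to 2942 and 957.9 RPM, with 5 of 6 lower. Fibroblast markers summed to 7644 and 3767 RPM with 3 of 5 lower, and endothelial markers to 1055 and 352.3 RPM with 4 of 5 lower. Leukocyte markers summed to 125.1 and 45.0 RPM with 6 of 6 lower, on the side of *Socs1* and *Irf1*, which blood cells also express. Adipocyte markers summed to 29.4 and 20.6 RPM, with 3 lower and 1 higher of the 4 that passed the minimum, and *Plin1* and *Retn* stayed under 1 RPM in both libraries. Erythroid markers summed to 888.5 and 997.4 RPM with 0 of 3 called. Luminal keratins were far above 0 in both libraries, as the label of mammary epithelium requires, and markers of the depleted lineages were not at 0.

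**Figure D5:**
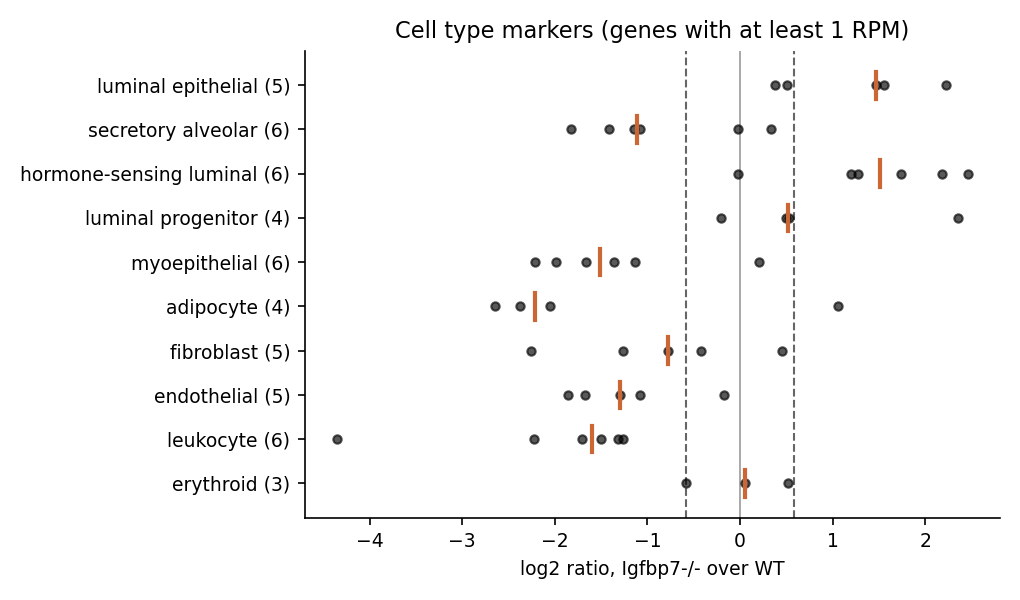
Log2 ratio of *Igfbp7*-/- over WT at the deposited RPM scale for cell type markers with at least 1 RPM, 1 point per gene, grouped by cell type with the number of genes in parentheses. Vertical bars are group medians and dashed lines mark a ratio of 1.5. Luminal and hormone-sensing lists have medians of 1.47 and 1.51, and myoepithelial, endothelial and leukocyte lists lie below 0, at -1.51, -1.30 and -1.60.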

How the data were processed

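Per the methods, the authors sequenced paired-end SOLiD libraries, mapped them with a Bowtie pipeline in the GeneSifter software and filtered mitochondrial, ribosomal and small nuclear RNA. The deposited counts still include reads on ribosomal and small nuclear RNA genes, 2.96% (WT) and 3.15% (*Igfbp7*-/-) of the library totals. The methods name a human build, the submitters' processing notes name mm9, Bowtie 0.12.3 and SAMtools 0.1.15, and the files list mouse genes on matching chromosomes. The deposited files hold a count, an RPM and an RPKM for each gene, of which the count is of raw reads. For RPM the authors scaled the count to a library total that is larger than the listed reads. The deposited RPKM divides the RPM by 1 gene length set by the authors. Of 25860 rows, 50 without a symbol (0.0495% and 0.0670% of listed reads) were left out.

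Ratios used RPM plus 0.1 for 14026 genes at or above 1 RPM in either library. Counts were divided by 2 into read pairs for intervals, since 75.8% and 74.1% of counts up to 20 were even. Intervals of quotients are conditional odds ratio intervals on pairs. PCR copies are not independent molecules, so intervals cover counting error only. Groups came from the sample labels, and no batch label was given. The genes and lists were chosen with earlier results of these data known. From each pathway list all genes with at least 1 RPM were named where there were at most 4, and otherwise the 2 of highest mean RPM and the 2 of largest ratio among those with at least 10 RPM. Names outside this rule are marked where they appear, and not every gene that meets it is reported here. Alternatives were other pseudocounts, minimums, thresholds and scalings, edgeR 4.0.16 TMM and DESeq2 1.42.0 size factors included, with luminal scaling set on *Krt8*, *Krt18*, *Krt19*, *Epcam* and *Cdh1*. Scaling without ribosomal and small nuclear RNA and the quotients were added after seeing the data. Scripts were tested on simulated data. Gene positions came from the NCBIM37 annotation (mm9) and promoters from RefSeq. Python 3.11.15, numpy 2.4.6, scipy 1.17.1, pandas 2.3.3, matplotlib 3.10.9 and R 4.3.3 were used.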

Additional observations from a re-analysis of the deposited data

How the results depend on the processing

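With 1 library per genotype, the spread between animals is unknown, no library was left out, and no p-value was computed. No paired analysis was possible because each genotype had 1 library and no replicate number. Intervals on single reads in place of pairs were narrower for all 10 genes (for *Socs1* a width of 1.01 in place of 1.46 on the log2 scale). Over 11 alternative scalings, pseudocounts and minimums, the call of *Socs2* held in all 11, that of *Socs1* in the 10 that kept it, and that of *Prlr* in 10.

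Scaling to luminal markers shifted the median of all genes by -1.23. It gave 0 of the 10 genes higher and 9 lower with a median log2 ratio of -1.58, 1 pathway gene higher and 46 lower, and 244 of all genes higher and 11082 lower, a share of 2.15% higher among the called, against 48.2% at the deposited scale. Scaling to listed-gene totals shifted the median by 0.19 and moved that share to 62.2%. It gave a median over the 10 genes of -0.17 and 15 pathway genes higher. Without ribosomal and small nuclear RNA in these totals the share was 63.0%, 2 of the 10 genes were higher with *Ghr* added, their median was -0.16, 15 pathway genes were higher, and 4576 of all genes were higher. A minimum of 10 RPM left 1 of the 10 genes lower, and 1696 of all genes higher and 1672 lower. No minimum gave 4741 higher and 5279 lower. A threshold of 2 left 1 of the 10 genes lower, with the call of *Socs2* lost, 4 pathway genes higher and 14 lower, and 1352 of all genes higher and 1936 lower. RPKM, TMM, size factors, totals without the 20 highest genes and both other pseudocounts kept each count within 1.5 times. The cause of these shifts was not tested.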
